A study of Mus musculus with 2 samples.

Results

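Genes for pacemaking, calcium entry and electrical coupling were followed in fetal mouse ureters that differ in Bmp4, a secreted signal that the mesenchyme around the ureter makes. The members were 9 genes, taken by name with their older aliases: the HCN channel genes Hcn2, Hcn3 and Hcn4, the interstitial cell genes Kit and Ano1, the calcium channel genes Cacna1c and Cacna1h, and the connexin genes Gja1 and Gjc1. They had 12 of the 39429 probes on the array. A gene was tested where a probe of it stood well above background, by the scanner's own mark, in both RNAs of 1 genotype. Of the 9 members 8 passed, among 21978 genes in all, and Hcn4 did not.

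RNA came from E14.5 ureters of NMRI mice. The Bmp4cKO embryos were Tbx18(cre/+);Bmp4(fl/fl): cre replaces 1 Tbx18 copy, so that the floxed Bmp4 alleles are lost only where Tbx18 is active, in the mesenchyme and not in the epithelium. The controls were Tbx18(+/+);Bmp4(fl/?), with no cre and with at least 1 floxed allele, the other allele not being specified. There were 2 two-colour arrays, each with 1 RNA of each genotype, and the dyes were exchanged between them: the control RNA carried AlexaFluor647 on replicate 1 and AlexaFluor555 on replicate 2. The sources used here do not say whether an RNA was pooled over embryos. The p-values rest only on the spread between these arrays and on a variance shared over genes, not on a known number of embryos. The arrays lie on 1 slide and were scanned together.

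The ureter moves urine to the bladder by waves of contraction that start near the kidney and run down the smooth muscle coat. HCN channels carry an inward current on hyperpolarisation and are known for pacemaking in heart, nerve and renal pelvis. Kit, a receptor tyrosine kinase, and Ano1, a calcium-activated chloride channel, mark the interstitial cells of Cajal that pace the gut. T-type and L-type calcium channels bring in the calcium for the upstroke and for contraction, and connexins form the gap junctions through which the signal passes from cell to cell.

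No difference in these 8 genes passed the test, and with the main processing each was bounded within a 2-fold change. Of 8 members 0 were called (limma, adjusted p under 0.05), beside 1.92% of all genes tested. An unadjusted p under 0.05 was reached by 1 member on the higher side, Ano1, beside 7.17% of all genes, and by 1 on the lower side, Cacna1h, beside 7.37%. A change of at least 2-fold, the same way on each array, was seen in 0 of 8 members and in 1.2% of all genes. The members' median log2 ratio, RNA labelled Bmp4cKO over RNA labelled control, was -0.12, or -0.19 on replicate 1 and -0.09 on replicate 2, and the median of all genes was -0.01. The 95% interval of the mean lay within 2-fold either way for 8 of 8 members and within 1.5-fold for 6 of 8, beside 93.6% and 73.6% of all genes. These intervals rest mostly on a variance that limma shares over genes, with 4.05 prior and 1 residual degree of freedom.

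All directions follow the dye labels, and the check on the targeted gene goes against them. The tested Bmp4 probe had processed signals of 3613 and 1973 in the RNAs labelled control and 29491 and 27393 in those labelled Bmp4cKO. The log2 ratio was 3.38 ± 0.48 (limma adjusted p = 0.016; SD over n = 2 arrays). The sources used here do not say whether that probe lies inside the floxed stretch, so whether it reads the deletion is not known. Another Bmp4 probe was not well above background in any of the 4 RNAs, and no fold is given for it. Tbx18 too was higher in the RNAs labelled Bmp4cKO, at 0.97 ± 0.17 (SD, n = 2 arrays; limma adjusted p = 0.039). Cre replaces 1 Tbx18 copy in the Bmp4cKO embryos and none in the controls. Whether the Tbx18 probe reads the replaced stretch is not known, and the part of copy number in its ratio was not tested. Whether the labels are exchanged was not tested. In the authors' deposited table both genes have the opposite sign, with signed folds of -8.16 and -13.9 for Bmp4. By the dye labels the sign of that table follows control over Bmp4cKO on both arrays, though its numerator is not stated. Read in that way, it gives the same direction as the ratios here. A positive ratio below therefore means the direction of the tested Bmp4 probe, and every sign turns if the dye labels are exchanged. On replicate 2, labelled male in both channels, a Ddx3y probe of the Y chromosome gave 2720 in the RNA labelled control and was not above background in the one labelled Bmp4cKO, so that sex and genotype label differed together there. By channel, 69.3% to 74.6% of the spots passed the scanner's background mark, and the number of arrays, 2, limits the precision.

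Each of 3 genes was read by 2 probes, and the sequences show that these are separate stretches, whose values are given side by side. The first 30 bases of each 60-base probe are given 5′ to 3′ on the strand of the gene, all in lower case because no base is singled out. In mm9 the Cacna1h probes lie on the minus strand, the brighter at chr17:25511265-25511294 and the dimmer, 58583 bases upstream in the gene, at chr17:25569848-25569877. The Cacna1c probes, also on the minus strand, lie at chr6:118537346-118537375 for the brighter and chr6:118544109-118544138 for the dimmer. The Hcn2 probes lie 180 bases apart on the plus strand, the brighter at chr10:79198412-79198441 and the dimmer at chr10:79198592-79198621. Exon and untranslated region annotation for this build was not used here.
Cacna1h, brighter probe: caaagctaaggggaggggaggggcaaagca
Cacna1h, dimmer probe: cttcttctgcctcgggcaaaccacgcggcc
Cacna1c, brighter probe: ctgtgtgagacgctactgtatattcctgta
Cacna1c, dimmer probe: tgacgcctgcgacatgacaatagaggagat
Hcn2, brighter probe: tgcgcccggctgtccccccatcgccctgcg
Hcn2, dimmer probe: agaatatggatcaagtgcaatactcggccc

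Of the whole probes, the brighter Hcn2 probe is 81.7% G and C and the dimmer 60%. For Cacna1h the shares are 41.7% and 63.3%, and for Cacna1c 35% and 55%. The dimmer Cacna1c probe carries that gene name on the array. The brighter is listed as D930026N18Rik, which the RefSeq gene table for GRCm38.p6 gives as an alias of Cacna1c, and it may read a separate transcript. It represents the gene in the test because the brightest probe was taken.

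Among the HCN channel genes, Hcn2 had close signals in the 4 RNAs. The brighter probe gave 6859 in the control RNA and 5608 in the Bmp4cKO RNA of replicate 1, and 6292 and 6376 on replicate 2. The processed signals thus point opposite ways on the arrays, and the groups overlap. After loess the arrays gave log2 ratios of -0.26 and -0.02, which average to -0.14 ± 0.17 (SD, n = 2 arrays; 95% interval -0.46 to 0.19; limma adjusted p = 0.75). The dimmer probe, 402 and 374 on replicate 1 and 391 and 333 on replicate 2, gave a mean of -0.15 ± 0.12.

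Hcn3, a subunit known from pacemaker cells of the renal pelvis, gave 205 in the control and 165 in the Bmp4cKO RNA of replicate 1. On replicate 2 it gave 205 and 187. The Bmp4cKO signal was the lower on both arrays. The log2 ratio was -0.19 ± 0.13 (SD, n = 2 arrays; 95% interval -0.50 to 0.13; limma adjusted p = 0.61), which did not pass.

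Hcn4, the main HCN subunit of the sinus node, was not well above background in any of the 4 RNAs. Its spots were 1.08 to 1.61 times the local background. No level and no fold is given for it. The probe, on chromosome 9 from 58708685 to 58708744, was the only one for this gene. Of related genes, Kcne2 did not pass the filter either. The HCN accessory genes Lrmp, Pex5l and Mrvi1 were measured and 0 of 3 were called. Lrmp had the furthest mean, 0.49, and Pex5l had 0.16, from -0.05 on replicate 1 to 0.38 on replicate 2.

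**Figure D1:**
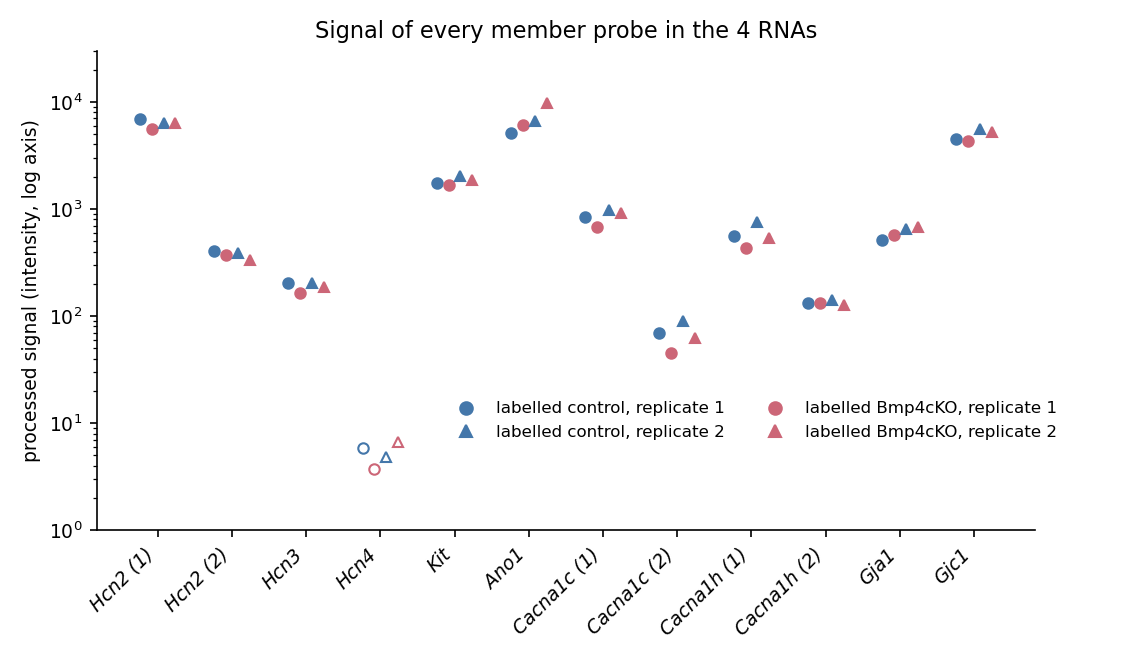
Processed signal (intensity, log axis) of all 12 probes of the 9 genes in the 4 RNAs: circles are replicate 1, triangles replicate 2, blue the RNA labelled control and red that labelled Bmp4cKO; open symbols were not well above background. For genes with 2 probes, (1) is the brighter. The 4 symbols of a probe lie close together, Hcn4 alone lies at background, and levels of different probes cannot be compared.

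Kit was the member with the smallest mean ratio. Its probe, on chromosome 5 from 76052394 to 76052453, gave 1737 in the control and 1688 in the Bmp4cKO RNA of replicate 1, and 2017 and 1881 on replicate 2. Its log2 ratio was 0.00 and -0.11, a mean of -0.05 ± 0.08 (SD, n = 2 arrays; 95% interval -0.36 to 0.25; limma adjusted p = 0.92). The groups overlap, since the Bmp4cKO RNA of replicate 2 lies above the control RNA of replicate 1.

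Mast cells and melanocytes also carry Kit, and their markers were checked beside it. Of 8 mast cell markers 6 were measured, and Ms4a2 and Fcer1a did not pass the filter. Hdc, the histamine-forming enzyme, fell by 1.94 ± 0.17 on the log2 scale (SD, n = 2 arrays; limma adjusted p = 0.018) and no other was called. The list's median was 0.04, and its summed signal was 13013 and 16689 in the control and 14047 and 16827 in the Bmp4cKO RNAs. Gata2, which other cells also carry, gave 90.8% of that sum. The other 5 markers, Hdc among them, summed to 1587 and 1713 in the control and 1301 and 967 in the Bmp4cKO RNAs. Hdc itself gave 723 and 855 in the control and 176 and 175 in the Bmp4cKO RNAs. Cpa3 and Cma1 were named after their values were seen. On the arrays Cpa3 had 0.60 and -0.34, and Cma1 had 0.51 and 0.12. Of the list, 5 were well above background in every RNA, and of these 1 was higher and 1 lower on both arrays. Of 6 melanocyte markers 4 were measured and 0 were called. Mitf had the furthest mean of them, -0.60, and Pmel had 0.09. Their summed signal was 1667 and 2055 in the control and 1384 and 1235 in the Bmp4cKO RNAs, and the pigment genes Dct and Tyrp1 did not pass the filter. Mitf gave 80.0% of that sum, and the other 3 markers summed to 304 and 326 in the control and 331 and 310 in the Bmp4cKO RNAs. The part of such cells in the Kit value was not tested. In whole ureters, fewer cells of a type and less RNA per cell cannot be told apart.

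Ano1 was the member that lay furthest in the direction of Bmp4. Its probe, on chromosome 7 from 151774604 to 151774663, gave 5137 in the control and 6047 in the Bmp4cKO RNA of replicate 1, and 6648 and 9819 on replicate 2. The Bmp4cKO signal was the higher on both arrays, though that of replicate 1 is below the control of replicate 2. The log2 ratio was 0.25 and 0.48, a mean of 0.37 ± 0.17 (SD, n = 2 arrays), which is 1.29-fold with an interval from 1.03 to 1.62. The unadjusted p was 0.033 and the limma adjusted p over all genes 0.29, so it did not pass.

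Kit ligand and other genes known from interstitial cells of Cajal were measured as a list of 4, of which 0 were called. Kitl, the ligand of Kit, was named for that role after its value was seen and had a mean log2 ratio of 0.15, from -0.08 on replicate 1 to 0.37 on replicate 2. Prkcq, a protein kinase C gene, had 0.41, with 0.29 and 0.52 on the arrays. Etv1, a transcription factor of these cells, had 0.32, with 0.37 and 0.27. Thbs4, also chosen after its values were seen, had -0.74 on replicate 1 and 0.78 on replicate 2. Of the 4, 2 were higher on both arrays and 2 pointed opposite ways. The list's median was 0.23, against -0.01 for all genes.

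Of 7 measured anoctamin genes other than Ano1 0 were called. Ano4 was at -0.69 and Ano9 at 0.51, the furthest means in each direction. Of the 5 that were well above background in every RNA, 1 was higher and 3 lower on both arrays, with a median of -0.25. The difference between Ano1 and its family was not tested.

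**Figure D2:**
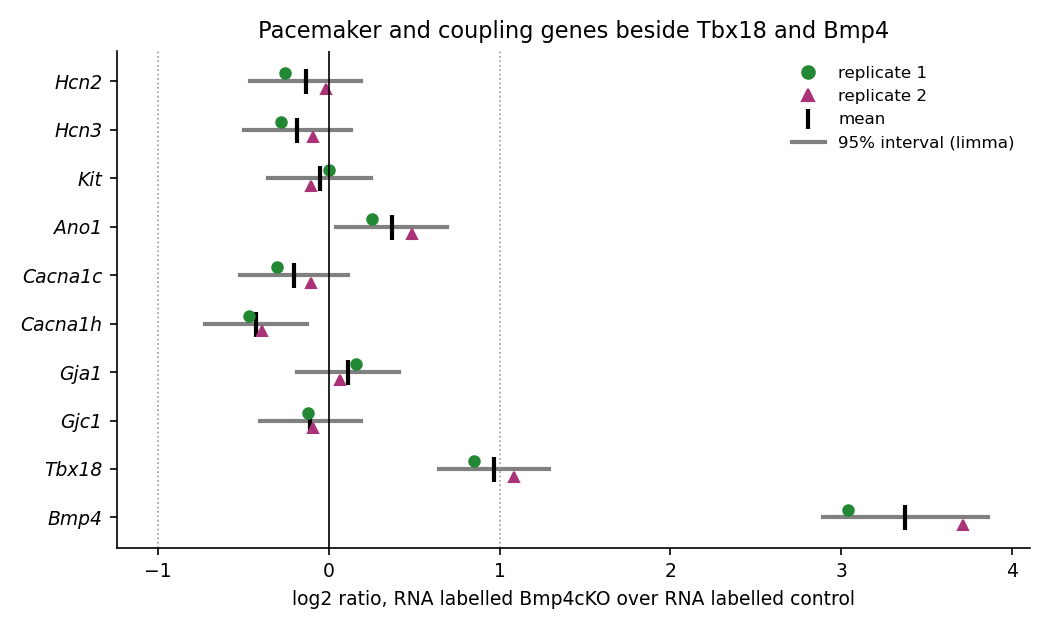
Log2 ratio (RNA labelled Bmp4cKO over RNA labelled control) of the 8 measured genes, with Tbx18 and Bmp4: circles are replicate 1, triangles replicate 2, ticks the mean and grey bars limma's 95% interval; dotted lines mark a 2-fold change. The 8 means lie between -0.43 for Cacna1h and 0.37 for Ano1, and no bar of theirs reaches a dotted line.

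Among the calcium channel genes, Cacna1h, the T-type alpha1 subunit, was the member furthest against the direction of Bmp4. The brighter probe gave 565 in the control and 431 in the Bmp4cKO RNA of replicate 1, and 756 and 541 on replicate 2. The Bmp4cKO signal was the lower on both arrays. The log2 ratio was -0.47 and -0.39, a mean of -0.43 ± 0.05 (SD, n = 2 arrays; 95% interval -0.73 to -0.13). The limma adjusted p was 0.18, so it did not pass, although its unadjusted p was 0.014.

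This call depends on how the variance is shared. When limma's prior variance followed the signal, Cacna1h was called, at an adjusted p of 0.0064, and it was then the 1 called member of 8. In that setting 11.1% of all genes were called, and the variance of every gene was set by its signal alone. The dimmer probe of Cacna1h, the upstream one, lay nearer to 0, and the difference between the probes was not tested. It gave 133 in the control and 131 in the Bmp4cKO RNA of replicate 1, and 142 and 126 on replicate 2, a mean log2 of -0.08 ± 0.08 (95% interval -0.38 to 0.23).

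Cacna1c, the L-type alpha1 subunit of smooth and cardiac muscle, was lower in the Bmp4cKO RNA on both arrays with either probe, and passed with neither. The brighter probe gave 849 in the control and 682 in the Bmp4cKO RNA of replicate 1, and 979 and 915 on replicate 2. The groups overlap, with a log2 ratio of -0.20 ± 0.14 (SD, n = 2 arrays; 95% interval -0.52 to 0.11; limma adjusted p = 0.57). The probe named Cacna1c was dim, at 69.3 and 45.3 on replicate 1 and 90.2 and 62.2 on replicate 2, with spots 3.42 to 8.51 times the local background. Its mean was -0.38 ± 0.07 (SD, n = 2 arrays; 95% interval -0.68 to -0.08; limma adjusted p = 0.24).

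The other alpha1 subunit genes of voltage-gated calcium channels were measured for 5 of 8, and 0 were called. Cacna1g, another T-type gene, had the furthest mean of them, -0.45, with -0.70 on replicate 1 and -0.21 on replicate 2. Cacna1d, an L-type gene, had -0.30, with -0.32 and -0.28. Of the 5, 4 were lower on both arrays and 1 pointed opposite ways, and their median was -0.18. Cacna1b, Cacna1e and Cacna1f did not pass the filter.

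Of 11 measured beta, alpha2delta and gamma subunit genes 0 were called. Cacng4 lay nearest to the threshold, at -0.75 ± 0.02 (SD, n = 2 arrays; limma adjusted p = 0.055). Cacng1, the gamma subunit of skeletal muscle, was not well above background in the Bmp4cKO RNAs, so that only a bound is given. It was at least 1.36-fold lower there, the control mean being set against the higher of its own signal and the lowest signal above background on each array. Cacnb2, a beta subunit gene chosen after its value was seen, had the highest mean, 0.55, with 0.67 and 0.44 on the arrays. Of the 10 others, all well above background in every RNA, 7 were lower and 2 higher on both arrays.

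Genes for calcium stores had a median of -0.13 over 17 measured, of which 0 were called. Ryr3, a ryanodine receptor, had the furthest mean, -0.61, with -0.42 and -0.80. Atp2a3, a pump that refills the store, had -0.52, with -0.53 and -0.51. On both arrays 9 of the 17 were lower and 4 higher.

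Neuronal and Schwann cell markers are given beside the calcium channels, which nerve cells also carry. Of 5 measured, 3 were lower and 0 higher (limma, adjusted p under 0.05). Tubb3, the neuronal tubulin, fell by 1.52 ± 0.28 on the log2 scale and Ret, which other cells also carry, by 1.20 ± 0.05 (SD, n = 2 arrays). Elavl3 fell by 0.89 ± 0.12. The summed signal of the 5 was 2477 and 2775 in the control and 1572 and 1557 in the Bmp4cKO RNAs, and all 5 were well above background in every RNA. Sox10, a Schwann cell gene named after its value was seen, was at -0.07 (limma adjusted p = 0.89) and gave 40.5% of that sum. The other 4 summed to 1659 and 1852 in the control and 810 and 667 in the Bmp4cKO RNAs. The part of nerve cells in the calcium channel values was not tested.

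**Figure D3:**
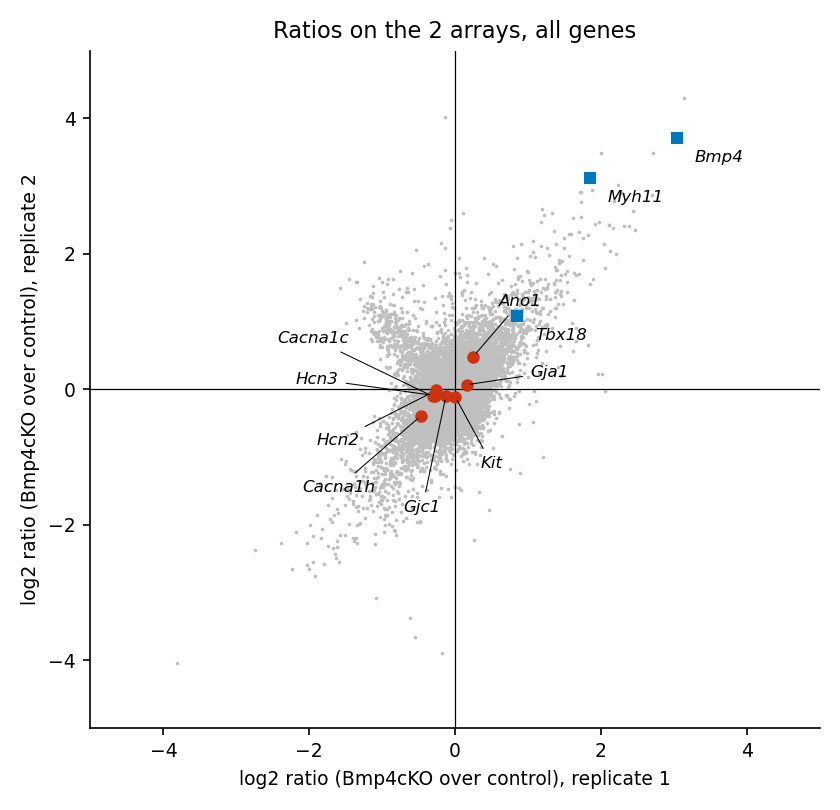
Log2 ratio (Bmp4cKO over control) on replicate 1 (x axis) against replicate 2 (y axis) for all 21978 genes (grey), the 8 measured genes (red) and Bmp4, Tbx18 and Myh11 (blue squares). The red points lie in the dense centre, between -0.47 and 0.48 on either array, and the blue squares lie away from it.

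Gja1, a connexin gene of smooth muscle and many other tissues, was the most closely measured member, since its probe had 10 spots on each array. On replicate 1 the 10 spots ran from 469 to 589 in the control and from 547 to 637 in the Bmp4cKO RNA. On replicate 2, where 1 spot was marked as an outlier and left out, the remaining 9 ran from 606 to 689 and from 618 to 749. The ranges of the channels overlap on both arrays.

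Spot by spot the log2 ratio was above 0 in 10 of 10 spots on replicate 1 and in 9 of 9 on replicate 2, where the lowest was at 0.00. It ran from 0.08 to 0.23 with a mean of 0.16 ± 0.06 (SD over spots) on the first and from 0.00 to 0.15 with a mean of 0.07 ± 0.05 on the second. Spots of an array share their RNA, so they show the precision of the measurement and are not replicates. Over the arrays the mean was 0.11 ± 0.06 (SD, n = 2 arrays; 95% interval -0.19 to 0.41; limma adjusted p = 0.79). A difference of that size was not detectable with 2 arrays.

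**Figure D4:**
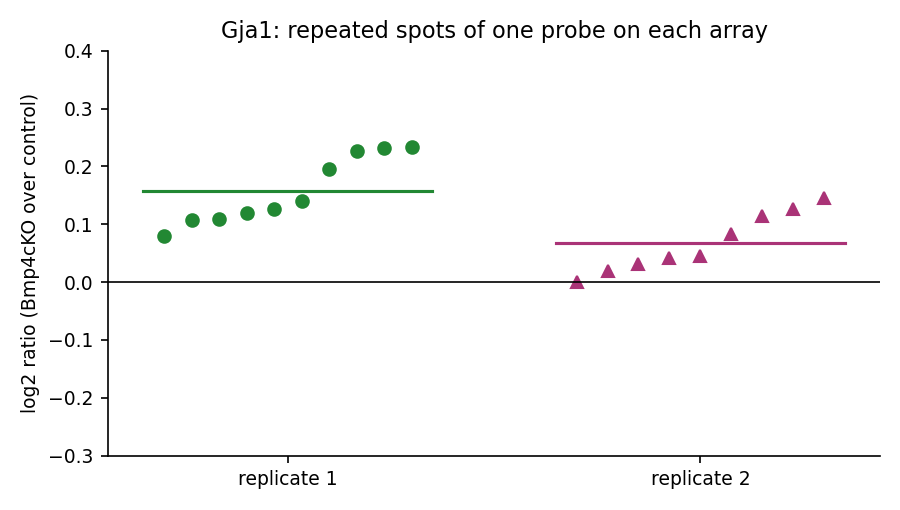
Log2 ratio (Bmp4cKO over control) of each spot of the Gja1 probe, sorted within its array, with circles for replicate 1 (10 spots), triangles for replicate 2 (9 spots) and lines for the means. All spots of replicate 1 lie between 0.08 and 0.23, and those of replicate 2 between 0.00 and 0.15.

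Gjc1, a connexin gene of smooth muscle and conduction tissue, differed little between the RNAs. Its probe, on chromosome 11 from 102661010 to 102661069, gave 4529 in the control and 4350 in the Bmp4cKO RNA of replicate 1, and 5624 and 5206 on replicate 2. The signal was slightly lower in the Bmp4cKO RNA on both arrays, and the groups overlap. The arrays lay closer together than for any other member, at -0.12 and -0.10, a mean of -0.11 ± 0.02 (SD, n = 2 arrays; 95% interval -0.41 to 0.19; limma adjusted p = 0.79).

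Of the other connexin genes 12 of 18 were measured and 0 were called. Gja5, a connexin gene of endothelium and conduction tissue, had the furthest mean, 0.55, with 0.30 and 0.80 on the arrays. Gjb6, an epithelial connexin, had 0.45 on replicate 2 and was not well above background in the control RNA of replicate 1, where no ratio is given. Gjb1 was chosen after its value was seen and had the lowest mean, -0.50, with -0.25 and -0.74. Of the 9 that were well above background in every RNA, 4 were higher and 2 lower on both arrays, with a median of 0.04.

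Endothelial markers, beside which Gja5 is placed, had 0 of 8 called and a median of 0.31. Sox17 had 0.66 and Cldn5 0.62. Their summed signal was 29769 and 31634 in the control and 34315 and 45078 in the Bmp4cKO RNAs, and their part in the Gja5 value was not tested.

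Of 11 measured smooth muscle markers 3 were higher, 1 was lower and 7 did not pass the test. Myh11, the smooth muscle myosin, had a log2 ratio of 2.48 ± 0.90 with a 95% interval from 1.70 to 3.27, Actg2 2.31 ± 0.85 and Cnn1 2.14 ± 0.58 (SD, n = 2 arrays). Synpo2 fell by 1.57 ± 0.33 on the log2 scale. The summed signal of the list was 30957 and 30808 in the control and 41970 and 63016 in the Bmp4cKO RNAs, and the part of muscle content in the members' values was not tested. The differences between these markers and the members were not tested.

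All 12 urothelial and all 8 mesenchymal markers were well above background in every RNA. Of 12 urothelial markers 6 were higher and 0 lower, with a median of 1.04, led by Upk1b at 3.72 and Upk3a at 2.48, followed by Upk2 at 2.41 and Pparg at 2.27, and their summed signal was 43565 and 49191 in the control and 84787 and 91316 in the Bmp4cKO RNAs. Of 8 ureteric mesenchyme markers Bmp4 and Tbx18 were higher, and Aldh1a2, an enzyme gene of retinoic acid synthesis, fell by 1.83 ± 0.46 on the log2 scale. Bmp4 is the floxed gene and Tbx18 the gene that cre replaces, so these 2 cannot stand for mesenchyme content. The rest of the list, named after its values were seen, was not called. Foxf1 was at 0.59, Sox9 at 0.25 (0.63 and -0.13 on the arrays), Tbx3 at 0.14, Tshz3 at -0.08 and Tbx2 at -0.18. Of 7 measured kidney markers Wnt9b, Wt1 and Lhx1 were lower, at -1.97, -1.34 and -1.06, and the list's median was -0.14. The rest of this list, also named after its values were seen, was not called. Six2 had 1.21 on replicate 1 and -0.99 on replicate 2. Pax2 was at -0.14, Foxd1 at -0.10 and Aqp2 at -0.02. Foxd1 gave 72.7% of the list's summed signal. The part of such tissue in the members' values was not tested.

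**Figure D5:**
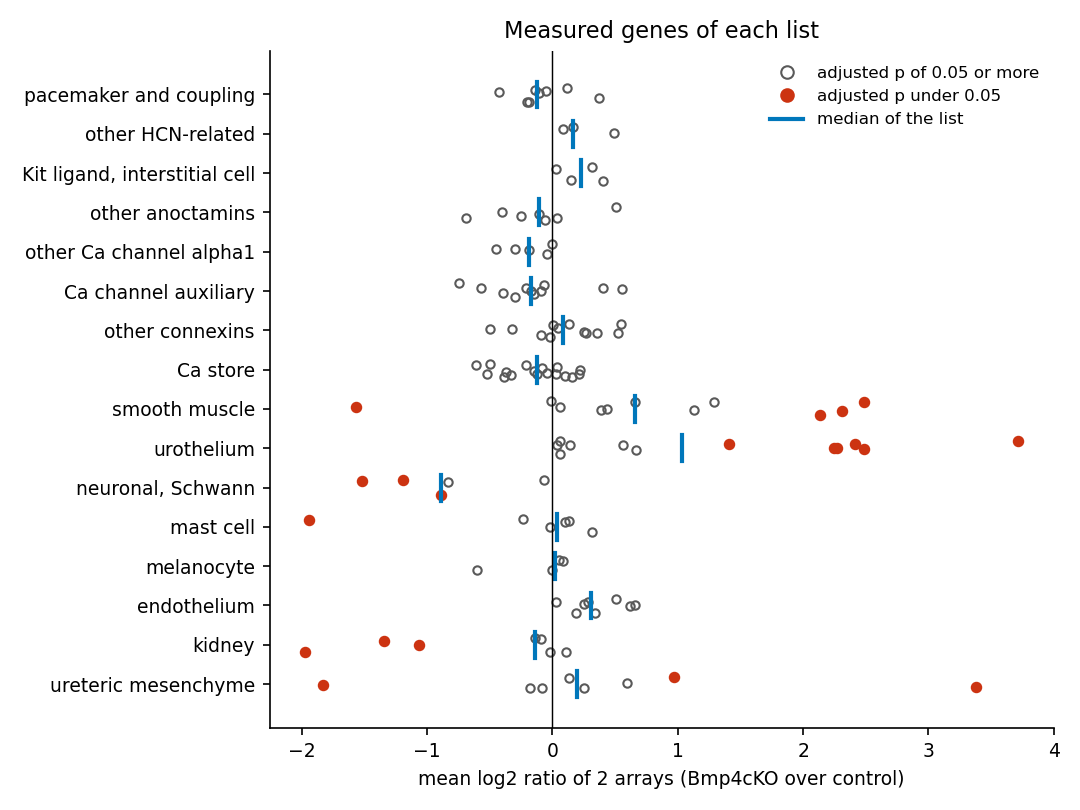
Mean log2 ratio of 2 arrays (Bmp4cKO over control) of every measured gene by list. Filled red points have a limma adjusted p under 0.05 and blue ticks mark list medians. Cacng1, Gjb6, Ano2, Ano7, Gja6, Gjb5 and Mcpt4, not well above background in every RNA, stand at their fitted values. No point is filled in the 8 upper lists, of pacemaker, coupling and calcium genes, while 4 smooth muscle, 6 urothelial and 3 neuronal points are.

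Directions can also be counted over the members. On both arrays 5 of 8 were lower and 2 higher in the RNA labelled Bmp4cKO, and 1, Kit, pointed opposite ways with 1 value near 0. Of all genes 58.8% had the same direction on both arrays, 30.6% lower and 28.2% higher. Dye effects and differences between the pairs of RNAs cannot be told apart, since each orientation was used once.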

How the data were processed

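Per the file headers, the authors scanned both arrays in 1 scan and quantified spots with Agilent Feature Extraction 10.7.3.1. The deposited spot and background intensities are linear and not normalized, and the deposited processed signals are intensities that were detrended and dye-normalized. The deposited LogRatio is log10 of red over green, per the file headers. The authors' deposited value table holds a score, a signed fold whose numerator is not stated; it matched the size of LogRatio within 0.01 (log2) for at least 99.8% of the probes compared, its column medians are 1, and its sign follows red over green on replicate 1 but the inverse on replicate 2.

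Background was corrected with normexp (offset 50), ratios were normalized by loess within each array and turned by the dye labels, and spots of a probe were averaged (limma 3.58.1, R 4.3.3). Outlier spots, 231 and 235, were left out. Of 39429 probes 31001 were named through RefSeq, and a gene took its brightest passing probe. The model (lmFit, then eBayes with a constant prior variance) covered all genes, with Benjamini-Hochberg adjustment, tested on simulated data. Members, lists and tests were chosen with earlier results of these data known. Named genes are all members, Bmp4, Tbx18, and from each list the called genes (at most 4 of a marker list), or else the 2 furthest means; exceptions are marked where they stand. Some genes of the HCN and neuronal lists are not reported here, and the lists' counts and sums leave them out.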

Additional observations from a re-analysis of the deposited data

Results flagged for a closer look

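Kit pointed opposite ways on the 2 arrays, by a value near 0 on the first. Its replicate 2 minus replicate 1 difference was -0.11 on the log2 scale, with 0.00 on replicate 1. The difference was not tested.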

How the results depend on the processing

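The members' values kept their sign and their side of the threshold in all alternatives with a test other than those named here. The settings for the prior, the filter and the separate channels reused the same ratio for each member. There the sign could not differ, and only the side of the threshold was open. Cacna1h passed with a prior trend, so 1 member was called there in place of 0. In 1 alternative every fitted ratio was turned, as the sign of Bmp4 and Tbx18 is in the authors' deposited table. The deposited folds themselves were not used there. This takes Hcn2 to 0.14, Hcn3 to 0.19, Kit to 0.054, Ano1 to -0.37, Cacna1c to 0.20, Cacna1h to 0.43, Gja1 to -0.11, Gjc1 to 0.11, Bmp4 to -3.38, Tbx18 to -0.97 and the members' median to 0.12. Over all genes 423 were called, 718 with plain background subtraction, 2436 with a trend, 1 with no normalization and 0 with median centring (limma), where 108 and 1759 genes had an unadjusted p under 0.05, against 3195. In the last 2 Bmp4 and Tbx18 did not pass, with Bmp4 at 3.36 and 3.38. With 1 array no test was possible, and the median was -0.19 without replicate 2 and -0.09 without replicate 1, with 0 members at least 2-fold in either case. The dimmer probes, an alternative chosen after seeing the data, gave -0.15 for Hcn2, -0.38 for Cacna1c and -0.08 for Cacna1h, and none passed. No paired analysis was possible beyond the ratio itself, because each array already pairs its RNAs; separate channels with no replicate block called 0 members and 326 genes, or 415 with a dye term. The number of arrays, 2, and the shared variance limit what could be called: the smallest called change was 1.75-fold, or 1.26-fold with a trend.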
